A study of Mus musculus with 6 samples.

Results

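Proteases that turn over the extracellular matrix, and their tissue inhibitors, were followed across the lungs of mice that express a truncated BMP receptor. The group is defined by name: every probe set (a set of short array oligonucleotides that reads 1 transcript) whose single gene symbol in the platform annotation is Mmp or Adamts with a number, or Timp1, Timp2, Timp3 or Timp4. That gave 70 of 45037 probe sets, for 37 genes of 18193 with a single symbol: 29 probe sets of 18 Mmp genes, 28 of 15 Adamts genes and 13 of 4 Timp genes. A mean intensity above 75 over the 6 arrays was reached by 42 of these probe sets, from 24 genes: 15 of 10 Mmp genes, 16 of 10 Adamts genes and 11 of 4 Timp genes. Other genes of these families were not analysed here.

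Whole lung homogenate from 6 FVB/N mice was hybridised to 1 Affymetrix array per mouse, with 2 mice in each of 3 groups. Every mouse carried SM22-rtTA, a doxycycline-dependent transactivator under the smooth muscle promoter SM22. Doxycycline was started at 4 weeks of age in all groups and given over 9 weeks, up to death at 13 weeks. Controls had the transactivator alone. R899X mice were heterozygous for it and for TetO7-BMPR2-R899X, a truncated form of the BMP receptor BMPR2 that the transactivator switches on. Their right ventricular systolic pressure (RVSP) at death was near normal in 2 mice (normal RVSP) and substantially raised in the other 2 (high RVSP). The series describes all mice as female, although the label of control 1 states no sex. The transgene is restricted to smooth muscle by its promoter, while the homogenate holds all cells of the lung, so that fewer cells of a type and less RNA per cell cannot be told apart.

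Median intensity per array was 128 to 141, and 2 mice a group limit the precision of every comparison. Markers of lung tissue were bright throughout: Sftpc, a surfactant protein of alveolar type 2 cells, lay between 26212 and 40876. The 3'/5' intensity ratio of the beta-actin control probe sets, which reads RNA integrity and labelling, was 1.89 on control 1 and 1.64 on normal RVSP 1, against 1.27 to 1.45 on the other 4 arrays. Values from a fit that includes the ratio are given beside the named differences it moved most.

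Matrix metalloproteinases are zinc enzymes made as inactive precursors, and between them they cut collagens, elastin, laminins and many signalling proteins. Adamts proteases carry thrombospondin repeats that hold them in the matrix, where they cut proteoglycans, process procollagens or bind fibrillin microfibrils. The Timp proteins block the active site of these enzymes, and Timp3 stays bound to the matrix and also inhibits several Adamts enzymes. In lung, these proteins take part in the remodelling of vessel walls and alveolar septa.

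A feature that the choice of members did not use is position. On chromosome 9 of the RefSeq annotation (GRCm38.p6), 10 protein-coding Mmp genes follow each other, and 9 of them are members: Mmp13, Mmp12, Mmp1b, Mmp3, Mmp1a, Mmp10, Mmp8, Mmp20 and Mmp7. Of these neighbours, 3 of 9 had a probe set above 75 (Mmp3, Mmp8 and Mmp12), and of the Mmp genes elsewhere 7 of 9. Probe sets differ in how brightly they read a transcript, so this is a count and not a comparison of transcript levels.

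RefSeq promoter windows (GRCm38.p6), from 250 bases before to 50 bases after an annotated start, were matched by symbol for 23 of the 37 member genes. Both strands were searched for AP-1 (TGANTCA, the site of Fos and Jun proteins, which reads the same on both strands), the TATA box (TATAAA) and the GC box (GGGCGG, the site of Sp1). No match of one motif overlapped a match of another in the member windows. AP-1 was found for 8 of the 9 chromosome 9 neighbours and for 0 of the 14 other member genes with a window. TATAAA was found for 9 of 9 neighbours and 1 of 14 others (Adamts1), and GGGCGG for 0 of 9 and 12 of 14. Among all 32851 RefSeq windows the shares were 7.81% for AP-1, 13.6% for TATAAA and 35.7% for GGGCGG, and among the 26 member windows 30.8%, 38.5% and 46.2%. The neighbours are related genes that arose by duplication, so their matches are not independent. A probe set above 75 was found for 2 of the 8 genes with an AP-1 match (Mmp3 and Mmp12) and for 12 of the 15 without.

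Windows of 5 members are printed 5′ to 3′ on the gene's own strand with the matches in capitals, because they show both kinds of promoter for genes whose values follow. Mmp3 (chr9:7445572-7445871, plus strand), a stromelysin, and Mmp13 (chr9:7272264-7272563, plus strand), a collagenase, hold AP-1 with its first base at -46 and -35 from the annotated start. The TATA letters follow it at -7 and -16. Mmp8 (chr9:7558179-7558478, plus strand), the neutrophil collagenase of the same run of genes, holds no AP-1 match. Its TATA letters, at -3, are on the other strand and read TTTATA as printed. Timp2 (chr11:118355362-118355661, minus strand) and Timp3 (chr10:86300162-86300461, plus strand), which had the smallest p-values among members for high RVSP against control, hold 1 and 2 GC boxes and neither of the other motifs.
Mmp3: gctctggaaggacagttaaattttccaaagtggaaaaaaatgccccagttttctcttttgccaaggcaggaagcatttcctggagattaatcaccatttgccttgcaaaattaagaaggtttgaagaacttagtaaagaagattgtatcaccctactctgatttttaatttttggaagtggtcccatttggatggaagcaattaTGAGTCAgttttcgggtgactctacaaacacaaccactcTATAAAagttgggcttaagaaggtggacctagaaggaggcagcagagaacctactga
Mmp13: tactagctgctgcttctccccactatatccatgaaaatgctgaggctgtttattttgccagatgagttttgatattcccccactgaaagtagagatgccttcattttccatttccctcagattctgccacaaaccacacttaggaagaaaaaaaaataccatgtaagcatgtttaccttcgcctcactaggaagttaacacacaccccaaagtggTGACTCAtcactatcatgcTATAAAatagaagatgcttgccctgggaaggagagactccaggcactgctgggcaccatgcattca
Mmp8: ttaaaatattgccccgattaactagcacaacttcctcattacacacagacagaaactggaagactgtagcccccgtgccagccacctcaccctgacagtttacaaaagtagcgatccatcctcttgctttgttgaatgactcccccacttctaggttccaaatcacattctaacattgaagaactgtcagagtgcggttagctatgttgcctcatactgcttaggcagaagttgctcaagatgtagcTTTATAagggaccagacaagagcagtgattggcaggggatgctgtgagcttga
Timp2: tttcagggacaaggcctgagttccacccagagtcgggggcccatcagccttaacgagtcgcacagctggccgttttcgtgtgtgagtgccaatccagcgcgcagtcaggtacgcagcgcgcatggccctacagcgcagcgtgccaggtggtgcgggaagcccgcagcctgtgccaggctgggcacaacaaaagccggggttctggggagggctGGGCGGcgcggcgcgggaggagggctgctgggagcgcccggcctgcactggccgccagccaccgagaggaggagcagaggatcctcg
Timp3: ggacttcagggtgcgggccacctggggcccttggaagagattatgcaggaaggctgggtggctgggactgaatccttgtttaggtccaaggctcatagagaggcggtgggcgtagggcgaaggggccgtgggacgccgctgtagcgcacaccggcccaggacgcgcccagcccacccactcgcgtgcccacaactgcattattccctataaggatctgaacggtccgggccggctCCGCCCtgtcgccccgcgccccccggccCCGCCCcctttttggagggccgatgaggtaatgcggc
A match describes letters in the window only, and no binding was measured in these mice.

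**Figure D1:**
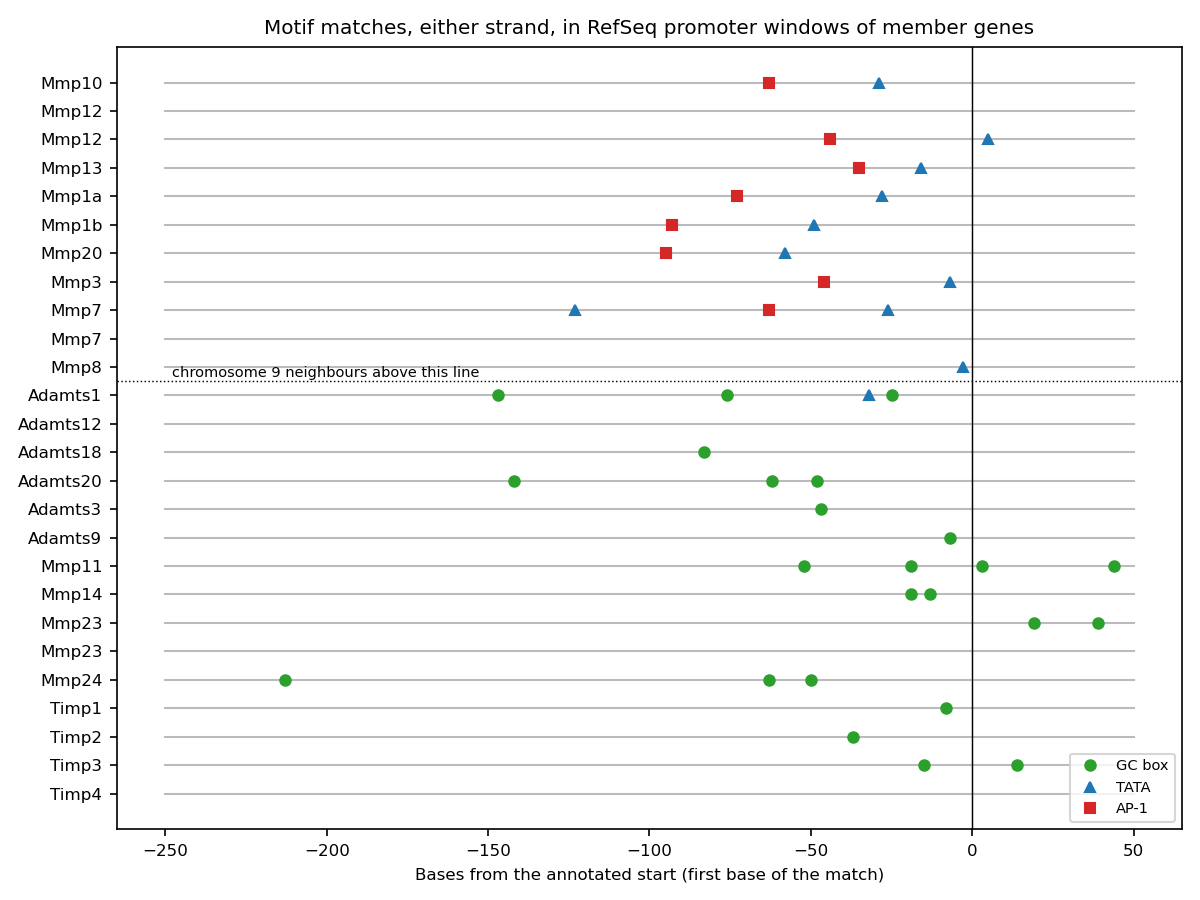
Motif matches in the promoter windows of member genes by distance in bases from the annotated start (x axis), with 1 line per window; squares are AP-1, triangles the TATA box and circles the GC box, on either strand. Among these windows AP-1 squares appear only above the dotted line, for 8 of the 9 chromosome 9 neighbours, and GC box circles only below it, for 12 of 14 other genes.

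The 28 member probe sets not above 75 had means between 3.50 and 72.9. Closest to the limit were Mmp24, a membrane-anchored metalloproteinase, at 72.9, and on the other side a dim Adamts10 probe set at 78.9 and Mmp17 at 80.6. No probe set above 75 was found for Mmp1a, Mmp1b, Mmp7, Mmp10, Mmp13, Mmp16, Mmp20 and Mmp24, nor for Adamts4, Adamts7, Adamts12, Adamts18 and Adamts19. Single arrays exceeded 75 for 6 of the 28. Mmp13 did so on control 1 at 87.7 and on normal RVSP 2 at 125, while its other 4 values lay between 23.9 and 35.5.

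Between the 2 mice of a group, the 42 probe sets above 75 differed by a median of 1.30-fold in controls, 1.19-fold at normal RVSP and 1.14-fold at high RVSP. The widest gaps were 2.24-fold for Adamts9 in controls, 2.18-fold for Adamts6 at normal RVSP and 2.22-fold for Mmp23 at high RVSP. On the scale log2(intensity + 16), used for all differences that follow, the median SD within groups was 0.247 for these members and 0.221 for all 27371 probe sets above 75.

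**Figure D2:**
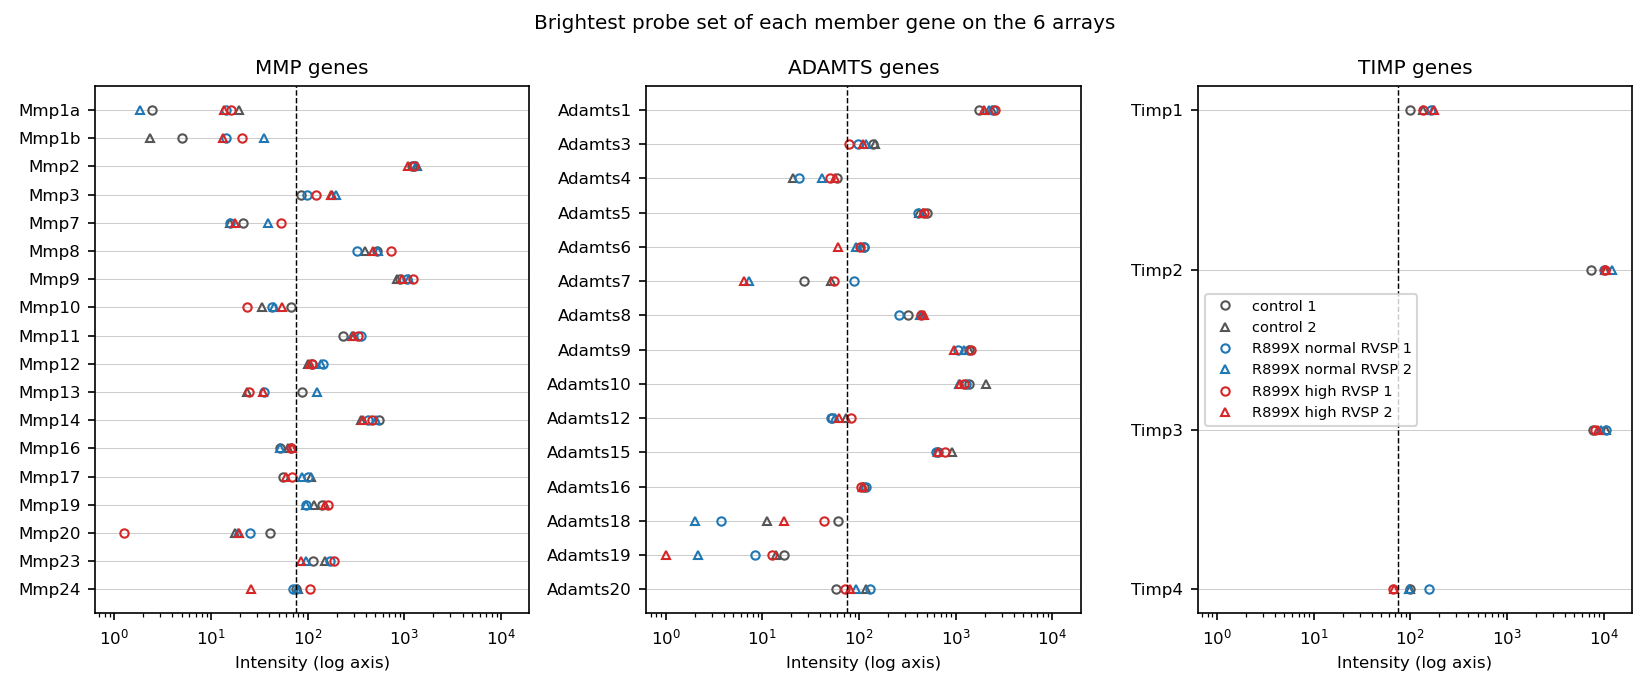
Deposited intensity (log axis) of the brightest probe set of each member gene, with 1 point per mouse and the limit of 75 as a dashed line; grey is control, blue normal RVSP and red high RVSP, with circles for replicate 1 and triangles for replicate 2. The points of Timp2 and Timp3 lie between 7340 and 12289, and 13 genes, Mmp13 and Mmp24 among them, have a mean under the line.

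Timp2 and Timp3 had the smallest p-values among members for high RVSP against control, each on 1 of several probe sets, and neither passed the adjusted test. Timp2 inhibits Mmp2 and is also needed for its activation at the cell surface. Its probe set 1420924_at read 1509 and 1876 in control lungs, 2059 and 2521 at normal RVSP, and 2707 and 3028 at high RVSP. The 3 groups did not overlap, in the order control, normal RVSP, high RVSP. The log2 difference from control was 0.76 ± 0.18 (unadjusted p = 0.00296, adjusted p = 0.823) at high RVSP and 0.43 ± 0.18 (unadjusted p = 0.0434, adjusted p = 0.986) at normal RVSP in limma. All 4 R899X mice together differed by 0.60 ± 0.16 (unadjusted p = 0.00513, adjusted p = 0.837). In a fit that includes the beta-actin ratio the high RVSP difference was 0.48 and that of all R899X mice 0.38, and without control 1 the normal RVSP difference was 0.28. The normal RVSP difference was 0.29 without normal RVSP 2 and 0.28 with that ratio in the fit.

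The other Timp2 probe sets did not all lie on the same side. Probe set 1433662_s_at read 7340 and 10350 in control lungs, 10041 and 12289 at normal RVSP, and 10376 and 10641 at high RVSP, with control 1 lowest. On 1450040_at the values were 2087 and 3083, then 3324 and 2669, then 2857 and 3752 in the same order of groups, and all groups overlapped. Probe set 1460287_at read 6691 and 6151 in control lungs, 7630 and 7353 at normal RVSP, and 7477 and 8136 at high RVSP, all 4 R899X mice above both controls. In contrast, 1454677_at read 10358 and 9814 in control lungs, 9718 and 8322 at normal RVSP, and 9518 and 8633 at high RVSP, all 4 below both controls. For high RVSP these 4 differed from control by 0.27 ± 0.20, 0.37 ± 0.23, 0.28 ± 0.14 and -0.15 ± 0.15 in that order. A further Timp2 probe set lay at 2.075 to 6.05, far under the limit of 75.

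Timp3, the matrix-bound inhibitor, had 4 probe sets above 75. Probe set 1419088_at read 833 and 1269 in control lungs, 924 and 1689 at normal RVSP, and 1820 and 2577 at high RVSP. Both high RVSP mice lay above the other 4, and the lowest values were those of control 1 and normal RVSP 1, the arrays with the highest beta-actin ratio. The limma difference of high RVSP was 1.06 ± 0.33 (unadjusted p = 0.0113, adjusted p = 0.864) from control and 0.79 ± 0.33 (unadjusted p = 0.0418, adjusted p = 1) from normal RVSP. All R899X mice differed from control by 0.67 ± 0.28 (unadjusted p = 0.0444, adjusted p = 0.837), with overlapping arrays. In a fit that includes the beta-actin ratio the differences from control were 0.39 at high RVSP and 0.15 over all R899X mice. Over all R899X mice it was 0.37 without control 1. High RVSP differed from normal RVSP by 0.36 without normal RVSP 1, by 1.22 without normal RVSP 2 and by 0.48 with the ratio in the fit.

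The remaining Timp3 probe sets did not separate high RVSP from control. Probe set 1449335_at read 7839 and 10555 in control lungs, 10467 and 9346 at normal RVSP, and 8095 and 8819 at high RVSP. On 1419089_at the values were 5835 and 8088, then 4728 and 7029, then 6581 and 7007, and on 1449334_at 1600 and 3011, then 1480 and 2381, then 2263 and 2552. High RVSP lay between the 2 controls on all 3, with differences from control of -0.11 ± 0.18, -0.02 ± 0.23 and 0.13 ± 0.32.

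**Figure D3:**
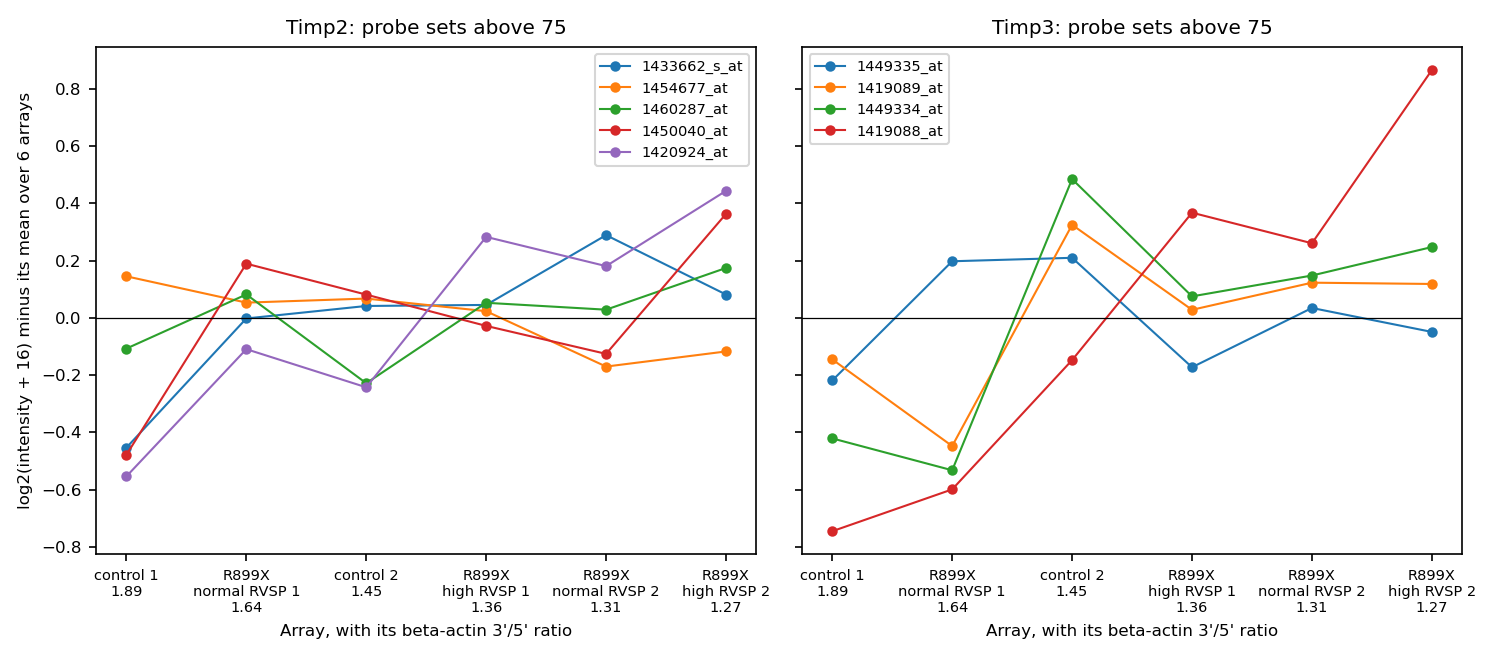
Probe sets of Timp2 (left) and Timp3 (right) above 75 on each array, as log2(intensity + 16) minus the probe set's mean over the 6 arrays (y axis), with arrays ordered by their beta-actin 3'/5' ratio from 1.89 to 1.27 (x axis). The lines of 1 gene part from each other, and Timp3 1419088_at and Timp2 1420924_at are lowest on control 1, the array with the highest ratio.

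Timp1, a secreted inhibitor that stromal cells release in inflammation, read 99.2 and 136.5 in control lungs, 163 and 172 at normal RVSP, and 135 and 174 at high RVSP. Both normal RVSP mice lay above the controls, while high RVSP overlapped with them. Timp4, an inhibitor found in heart and fat, read 99.1 and 100.5 in control lungs, 157 and 97.2 at normal RVSP, and 65.7 and 68.4 at high RVSP on its brighter probe set. The high RVSP mice were lowest there, with a limma difference of -0.76 ± 0.31 (unadjusted p = 0.0423, adjusted p = 1) from normal RVSP, which was -0.45 without normal RVSP 1. Its dimmer probe set, with a mean of 61.9, read 70.2 and 75.5 in control lungs, 23.7 and 44.7 at normal RVSP, and 82.7 and 74.7 at high RVSP, so that there the normal RVSP mice were lowest.

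The summed intensity of cardiac muscle markers, 9 of 11 of them above 75, was also lowest in the high RVSP mice, mostly in high RVSP 2. It was 23913 on high RVSP 1 and 12424 on high RVSP 2. At normal RVSP it was 25740 to 34416, and in controls 26238 to 28403. On high RVSP 1, Actc1 (6615) and Myl4 (2356) lay between the 2 controls, and the other markers above 75 lay below both. Nppa and Myl2 were under 75, and no cardiac marker was at 0. Adipocyte markers, 6 of 9 above 75, were not low there: they summed to 1997 to 2649 at high RVSP, 1274 to 4736 at normal RVSP and 966 to 1720 in controls. The part of either tissue in the Timp4 values was not tested.

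Among the metalloproteinases, Mmp9 had the smallest p-value for high RVSP against control. It is a gelatinase that cuts denatured and basement membrane collagen and is stored in neutrophil granules. Probe set 1448291_at read 685 and 517 in control lungs, 589.7 and 701 at normal RVSP, and 1130 and 846 at high RVSP. Both high RVSP mice lay above the other 4. The limma difference of high RVSP was 0.70 ± 0.22 (unadjusted p = 0.0136, adjusted p = 0.864) from control and 0.59 ± 0.22 (unadjusted p = 0.0287, adjusted p = 1) from normal RVSP, the latter 0.39 without high RVSP 1. Without control 1 and normal RVSP 1 the difference from control was 0.90 (adjusted p = 0.0462), in a fit that leaves 1 array in each of those groups.

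The brighter Mmp9 probe set, 1416298_at, read 896 and 836 in control lungs, 1059 and 1119 at normal RVSP, and 1231 and 953 at high RVSP. All 4 R899X mice lay above the controls on it, and the R899X groups overlapped with each other. Mmp8, the neutrophil collagenase, read 526 and 389.5 in control lungs, 321 and 538 at normal RVSP, and 724 and 469 at high RVSP. Its groups overlapped, and high RVSP 1 was highest, as it was on both Mmp9 probe sets.

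The summed intensity of neutrophil markers, 7 of 11 of them above 75, was also highest in that mouse, but single markers differed. It was 57725 on high RVSP 1 and 40769 on high RVSP 2, against 39916 to 43558 in controls and 41827 to 49096 at normal RVSP. S100a8 and S100a9, which make up most of that sum, and Csf3r and Cxcr2 were highest on high RVSP 1. In contrast, Ngp was highest on normal RVSP 2 (559 against 494 on high RVSP 1) and Camp and Ltf on control 2 (194 against 154, and 242 against 125). Ltf, the granule protein lactoferrin, was lower over all R899X mice by -0.63 ± 0.25 (unadjusted p = 0.0348, adjusted p = 0.837) in limma. Cxcr2 went the other way, with 283 and 477 in control lungs, 394 and 506 at normal RVSP, and 700 and 541 at high RVSP. Its limma difference at high RVSP from control was 0.72 ± 0.28 (unadjusted p = 0.0333, adjusted p = 0.864). Mpo and Elane, made in immature neutrophils, were under 75, and none of the 9 markers on the array was at 0. High RVSP 2, whose marker sum lay between those of the controls, read 846 on Mmp9 1448291_at, above the 685 of the higher control. The part of neutrophil number in these values was not tested.

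Mmp2, the gelatinase of stromal cells, read 1199 and 1360 in control lungs, 1267 and 1317 at normal RVSP, and 1246 and 1092 at high RVSP on 1416136_at. On 1439364_a_at the values were 1015 and 1290, then 1123 and 1194, then 1072 and 1031. Both R899X groups overlapped with control on both probe sets, with differences at high RVSP of -0.13 ± 0.16 and -0.12 ± 0.18. Mmp14, the membrane enzyme that activates Mmp2, read 541 and 359 in control lungs, 421 and 506 at normal RVSP, and 469 and 373 at high RVSP on its brightest probe set, where the controls spanned all 4 R899X mice. Its other probe sets read 216 and 126, then 118 and 214, then 185 and 175 and, on the dimmest, 86.15 and 94.3, then 67.7 and 75.4, then 118 and 73.7. Only on the dimmest did a group stand clear of control, with both normal RVSP mice below it.

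Mmp19, which cuts basement membrane proteins, lay on opposite sides of control in the R899X groups. Its brighter probe set read 142 and 117 in control lungs, 96.25 and 96.4 at normal RVSP, and 161 and 152 at high RVSP. The 3 groups did not overlap, and in limma high RVSP differed from normal RVSP by 0.62 ± 0.26 (unadjusted p = 0.0416, adjusted p = 1). A dimmer probe set, with a mean of 61.8, read 41.2 and 56.25, then 28.65 and 76.35, then 99.3 and 69.0, and its R899X groups overlapped.

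Mmp12, the macrophage elastase, read 112 and 101 in control lungs, 143 and 138 at normal RVSP, and 112 and 106 at high RVSP. Both normal RVSP mice lay above the other 4, by 0.36 ± 0.26 from control, with an unadjusted p above 0.05. Macrophage markers, 9 of 10 of them above 75, summed to 18779 to 19669 at normal RVSP, 14755 to 22733 at high RVSP and 18790 to 27009 in controls. Chil3 and Csf1r make up most of that sum and, like Siglecf, were highest on control 1. Cd68, Marco and Itgax were highest on normal RVSP 1, the array with the highest Mmp12 value. Adgre1 and Mrc1 were highest on high RVSP 2, and Cd163 on normal RVSP 2. On normal RVSP 2, where Mmp12 read 138, Marco (43.25) and Itgax (1035) were at their lowest. The part of macrophage number in the Mmp12 values was not tested.

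Mmp3, which cuts many matrix proteins and activates other metalloproteinases, read 84.7 and 178 in control lungs, 99.15 and 195 at normal RVSP, and 122 and 174 at high RVSP. In each group 1 mouse was low and 1 high. Mmp11, a stromelysin of stromal cells, read 234 and 299, then 359 and 290.5, then 333 and 292, with both R899X groups overlapping control. Mmp23, a transmembrane enzyme, read 114 and 149.9, then 169.9 and 96.0, then 189 and 84.9 on one probe set and 96.5 and 121.5, then 197 and 91.4, then 129 and 124.5 on the other. Within-group gaps for Mmp23 were as wide as the range over all mice on the first of these at high RVSP. Mmp17, which a lipid anchors in the membrane, read 55.3 and 108.5, then 101.5 and 88.4, then 69.7 and 60.5.

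Adamts genes accounted for the members with a small p-value that were lower than control. Adamts9, which cuts the proteoglycans versican and aggrecan, read 1370 and 1610 in control lungs, 983 and 905 at normal RVSP, and 1187 and 861 at high RVSP on 1430352_at. All 4 R899X mice lay below the controls. In limma the difference was -0.65 ± 0.20 (unadjusted p = 0.0119, adjusted p = 0.986) at normal RVSP and -0.55 ± 0.20 (unadjusted p = 0.0254, adjusted p = 0.864) at high RVSP, the latter -0.32 without high RVSP 2. Over all R899X mice it was -0.60 ± 0.17 (unadjusted p = 0.00866, adjusted p = 0.837).

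The brightest Adamts9 probe set, 1437785_at, read 1392 and 1377, then 1064 and 1224, then 1438 and 962. There 1 high RVSP mouse lay above the controls and the other was lowest of all. On the dimmest, 1431399_at, the values were 200.2 and 448.5, then 256 and 278, then 343 and 280.3, and the 2 controls spanned all R899X mice.

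Adamts10, which binds fibrillin microfibrils, had 2 probe sets that were both lower than control at normal RVSP and lay on opposite sides of control at high RVSP. The bright one, 1427139_at, read 1362 and 2040 in control lungs, 1296 and 1095 at normal RVSP, and 1207 and 1121 at high RVSP. All 4 R899X mice lay below the controls, by -0.50 ± 0.19 (unadjusted p = 0.0293, adjusted p = 0.837) together and -0.51 ± 0.22 (unadjusted p = 0.0452, adjusted p = 0.864) at high RVSP in limma. With the beta-actin ratio in the fit the high RVSP difference was -0.71. Without control 1 the values were -0.79 and -0.80, and without control 2 -0.21 and -0.23. Without control 1 and normal RVSP 1 together they were -0.85 and -0.80, in a fit that leaves 1 array in each of those groups. The only control in that fit is control 2, which had the highest value (2040).

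The dim Adamts10 probe set, 1441309_at, read 70.95 and 66.1 in control lungs, 34.4 and 54.4 at normal RVSP, and 116 and 132 at high RVSP. The 3 groups did not overlap, with a limma difference of -0.50 ± 0.32 at normal RVSP from control and of 1.23 ± 0.32 (unadjusted p = 0.00519, adjusted p = 1) between high and normal RVSP. It is above 75 in the mean only through the high RVSP arrays, so it had to be high there to be tested. With 64 in place of 16 added before the logarithm the difference was 0.80.

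Adamts5, a major aggrecan-cutting enzyme, also differed by probe set. Probe set 1422561_at read 555 and 436 in control lungs, 434.5 and 454 at normal RVSP, and 308 and 338 at high RVSP. Both high RVSP mice lay below the other 4, by -0.59 ± 0.20 (unadjusted p = 0.0188, adjusted p = 0.864) from control in limma. The others read 502 and 415, then 411 and 458, then 469 and 455.5 on 1456404_at and 228 and 177, then 176 and 203, then 212 and 248 on 1450658_at, and high RVSP overlapped with control on both.

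Adamts1, another versican-cutting enzyme, read 1745 and 2382 in control lungs, 2409 and 2224 at normal RVSP, and 2559 and 1946 at high RVSP, with both R899X groups overlapping control. Adamts15, also a proteoglycanase, read 661 and 928, then 633 and 658, then 774 and 657, and both normal RVSP mice were below the controls. Adamts8 read 322 and 447, then 259 and 432, then 438 and 468, with both R899X groups overlapping control. Adamts3, a procollagen-processing enzyme, read 141 and 148 in control lungs, 98.0 and 118.5 at normal RVSP, and 78.4 and 109.7 at high RVSP. All 4 R899X mice lay below the controls for Adamts3, by -0.46 ± 0.25, with an unadjusted p above 0.05. Adamts6, related to Adamts10, read 113.5 and 106, then 112 and 94.3, then 102 and 61.2 on one probe set and 107 and 78.9, then 55.4 and 121, then 109 and 103 on the other. Adamts16 lay between 106 and 117 and Adamts20 between 58.1 and 131.

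Counted over the 42 probe sets above 75, no member passed the adjusted test in any comparison. With 2 mice a group, a count of 0 does not show that members did not differ. For normal RVSP against control, 0 of 42 had an adjusted p under 0.05 in limma and 0 in the ordinary linear model, beside 0% of all probe sets. The limma p before adjustment was under 0.05 for 1 members that were higher and 1 that were lower, beside 1.66% and 2.63% of all probe sets tested (4.29% in either direction). Arrays did not overlap for 5 higher and 9 lower members, beside 14.3% and 15.2%. The difference was above 0 for 21 of 42 members, beside 49.8%. Mmp17 is among the 21 and is above 75 in the mean only with its normal RVSP arrays. Of the lower members without overlap, 6 were Adamts probe sets. The median difference was -0.154 over 16 Adamts, 0.0639 over 15 Mmp and 0.23 over 11 Timp probe sets, and -0.00442 over all members, beside -0.00142 over all probe sets tested. Probe sets of 1 gene count separately in these medians and those that follow, and most Timp ones are of Timp2 and Timp3.

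For high RVSP against control, 0 of 42 passed in limma and 0 in the ordinary linear model. The limma p before adjustment was under 0.05 for 3 members that were higher and 3 that were lower, beside 3.57% and 1.98% of all probe sets tested (5.55% in either direction). Arrays did not overlap for 9 higher and 8 lower members, beside 19.1% and 18.2%. The difference was above 0 for 24 of 42 members, beside 49.4%. Adamts10 1441309_at is among both the 9 and the 24, and had to be high at high RVSP to be tested. Nothing is therefore read from these 2 counts. The higher ones with a small p-value were Timp2, Timp3 and Mmp9, and the lower ones Adamts5, Adamts9 and Adamts10. Medians were -0.0799 for Adamts, 0.111 for Mmp and 0.269 for Timp probe sets, and 0.0451 for all members beside -0.00379. Adamts10 1441309_at also enters the Adamts median. On the brightest probe set of each gene the difference was 0.354 for Timp1, 0.269 for Timp2, -0.106 for Timp3 and -0.48 for Timp4. The Timp median is therefore not read as a change of the family.

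For high against normal RVSP, 0 of 42 passed in limma and 0 in the ordinary linear model. The limma p before adjustment was under 0.05 for 4 members that were higher and 1 that were lower, beside 1.66% and 0.968% of all probe sets tested (2.63% in either direction). Arrays did not overlap for 8 higher and 9 lower members, beside 16.8% and 15.4%. The difference was above 0 for 22 of 42 members, beside 51.9%. Mmp9, Mmp19 and Timp3 were higher ones with a small p-value and Timp4 the lower one. The remaining higher one, Adamts10 1441309_at, had to be high at high RVSP to be tested, so nothing is read from the count of higher members here. Mmp17 is among the 9 lower members without overlap. It is above 75 in the mean only with its normal RVSP arrays, so nothing is read from that count either. Medians were 0.0656 for Adamts, -0.00665 for Mmp and 0.0584 for Timp probe sets, and 0.0274 for all members beside 0.00903.

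For all R899X mice against control, 0 of 42 passed in limma and 0 in the ordinary linear model. The limma p before adjustment was under 0.05 for 2 members that were higher and 2 that were lower, beside 3.22% and 2.68% of all probe sets tested (5.90% in either direction). Arrays did not overlap for 3 higher and 4 lower members, beside 7.48% and 7.69%. The difference was above 0 for 22 of 42 members, beside 49.6%. Timp2 and Timp3 were the higher ones with a small p-value, and Adamts9 and Adamts10 the lower ones. Medians were -0.0439 for Adamts, 0.0308 for Mmp and 0.252 for Timp probe sets, and 0.00716 for all members beside -0.00225. On the brightest probe set of each gene the difference was 0.411 for Timp1, 0.309 for Timp2, 0.00712 for Timp3 and -0.102 for Timp4. The comparisons against control share the control mice, so their values are not independent.

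Probe sets of 1 gene often differed in direction, among members and over all genes. Of the 10 member genes with 2 or more probe sets above 75 (28 probe sets), 8 had probe sets on both sides of 0 for high RVSP against control, the exceptions being Mmp2 and Mmp9. For normal RVSP against control 4 of 10 did, for high against normal RVSP 7 and for all R899X mice against control 7. Of the 30 pairs of probe sets of 1 member gene, 43.3% had the same sign for high RVSP against control, beside 53.8% of 17870 pairs over all genes. The shares were 63.3% beside 57.1% for normal RVSP against control, 53.3% beside 58.8% for high against normal RVSP, and 50% beside 54.4% for all R899X mice. These pairs share the RNA of the same 6 mice, and which part of a transcript each probe set reads was not established here.

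**Figure D4:**
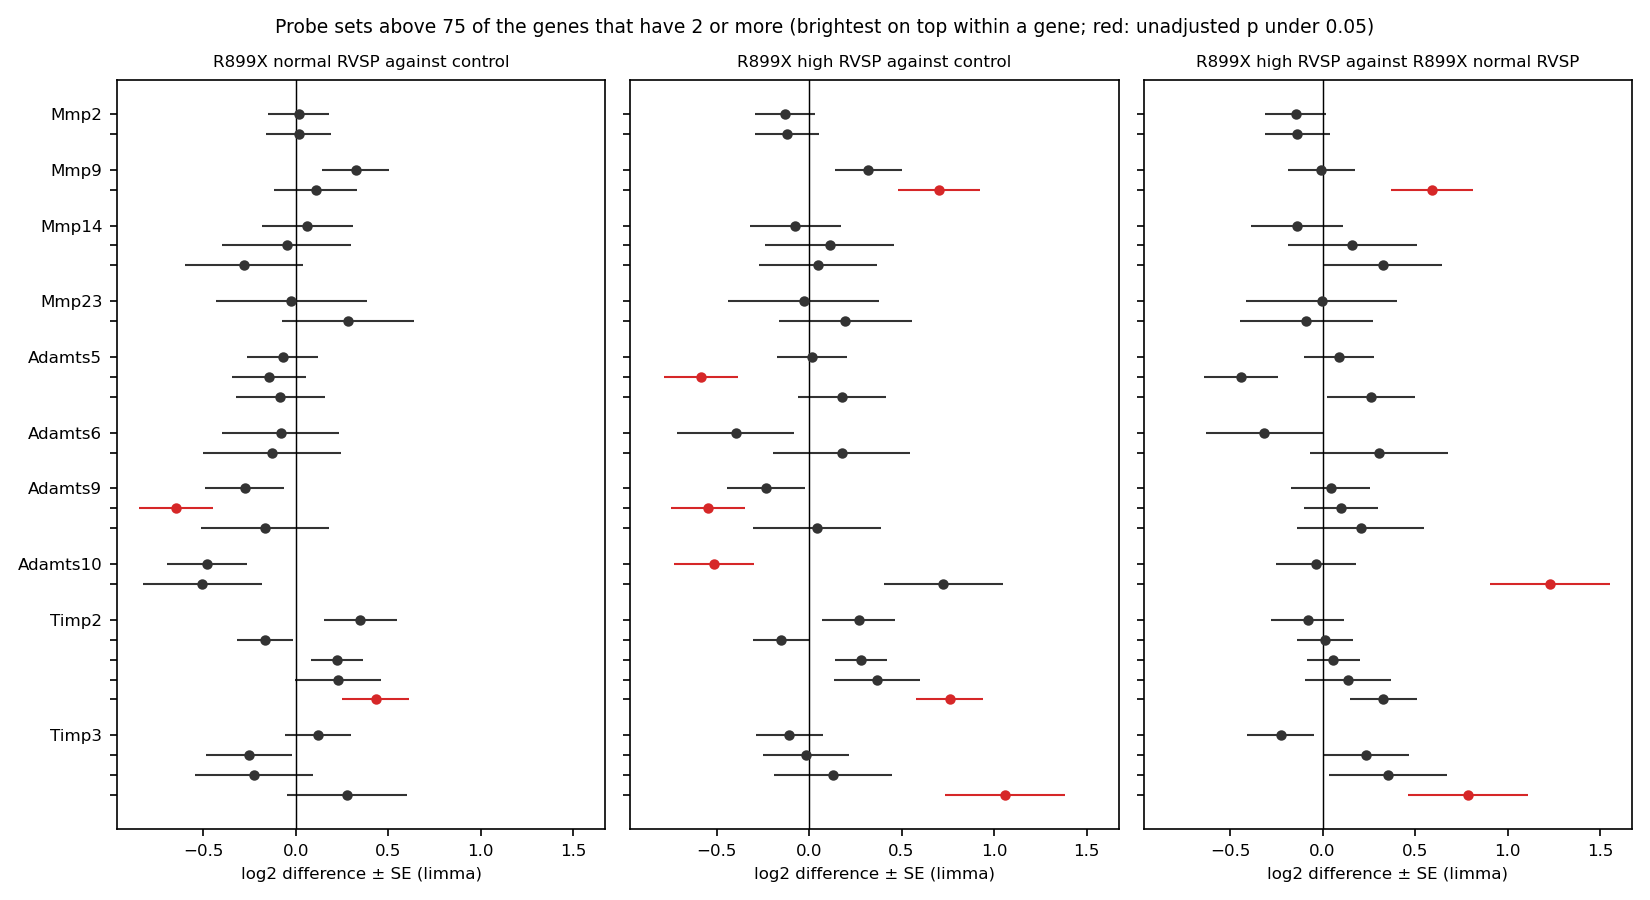
log2 differences with limma standard errors (x axis) for every probe set above 75 of the 10 member genes that have 2 or more, in 3 comparisons, with the brightest probe set of a gene on top; red marks an unadjusted p under 0.05. In the middle panel the differences of 1 gene lie on both sides of 0 for 8 of 10 genes. Adamts10 is among the 8, and its dim probe set had to be high at high RVSP to be tested.

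Genes that act with these proteins gave no adjusted call in any of the 4 comparisons in limma. Of 18 other regulators of metalloproteinases 13 were above 75, and 1 of them had an unadjusted p under 0.05, for high RVSP against control. It was Thbs1, a thrombospondin that binds metalloproteinases, which read 385 and 790.5 in control lungs, 478 and 802.5 at normal RVSP, and 1137 and 997 at high RVSP. Its limma difference was 0.93 ± 0.35 (unadjusted p = 0.0303, adjusted p = 0.864), and 0.16 in the fit that includes the beta-actin ratio, 0.42 without control 1, and 1.43 without control 2. No gene among the 6 Adamts-like and related proteins (of 7 listed), the 12 of the Adam family (of 12) or the 3 of the plasminogen system (of 10) above 75 had an unadjusted p under 0.05.

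Matrix substrates had 18 of 20 genes above 75. Dcn, the collagen-binding proteoglycan decorin, read 2856 and 2790 in control lungs, 4136 and 3824 at normal RVSP, and 3600 and 3652 at high RVSP. All 4 R899X mice lay above the controls, by 0.43 ± 0.12 (unadjusted p = 0.00809, adjusted p = 0.837) in limma. Col4a1, a basement membrane collagen chain, read 13571 and 11336, then 11848 and 9322, then 10001 and 8481, with a limma difference of -0.43 ± 0.18 (unadjusted p = 0.0463, adjusted p = 0.864) at high RVSP that was -0.14 in the fit that includes the beta-actin ratio. Of other matrix-degrading proteases 12 of 14 were above 75. Bmp1, a procollagen C-proteinase, read 324 and 565, then 431 and 367, then 261 and 268, with a limma difference of -0.66 ± 0.27 (unadjusted p = 0.0405, adjusted p = 0.864) at high RVSP that was -0.28 without control 2, -0.98 in the fit that includes the beta-actin ratio and -1.05 without control 1.

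For high RVSP against control the medians of these lists were 0.067 for the regulators, -0.149 for the Adamts-like proteins, 0.0476 for the Adam family, 0.124 for the plasminogen system, 0.0626 for the substrates and 0.101 for the other proteases. Over all probe sets the median was -0.00379. Fibroblast markers, 9 of 9 above 75, summed to 44075 to 45416 in controls, 43109 to 49170 at normal RVSP and 44883 to 47002 at high RVSP. Smooth muscle and pericyte markers, 10 of 10 above 75, summed to 22386 to 24048, 26480 to 29978 and 23576 to 24611 in that order, and were highest at normal RVSP. No marker of these lists was at 0, and the part of cell numbers in the member values was not tested.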

How the data were processed

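Each array's deposited file column holds linear intensities, 1 per probe set; the authors' algorithm is not stated in the labels or headers read here. The mean of every array, trimmed by 2% at both ends, equalled 500.0, which shows a common scaling, and nothing further was normalized. Per the labels, mice received heparin before death and the lung was flushed. Using limma 3.58.1 in R 4.3.3, log2(intensity + 16) of all 6 arrays was modelled with a mean for each group and an intensity trend (3 residual and 5.01 prior degrees of freedom). The 27371 probe sets with a mean intensity above 75 were tested two-sidedly, with p-values adjusted over all of them by Benjamini-Hochberg at 0.05; 64 control probe sets were left out. The added 16 understates differences of dim probe sets. Exact permutation tests cannot go below p = 0.333 (2 against 2 mice) or 0.0667 (4 against 2) and were not used. With controls left out, 34945 probe sets had 1 symbol and 932 several. Unlisted probe sets, 9211 with controls counted in, stay unnamed. The fit was tested on simulated data. Members, lists and rules were chosen with earlier results of these data known. Array values are given for Timp genes, a list of well-studied members above 75, members with an unadjusted p under 0.05, the 8 most variable members and genes with several probe sets; Mmp13 and Mmp24 were added after their values were seen. Genes of related lists are named at an unadjusted p under 0.05. Replicate numbers follow accession order, and nothing in the labels says more of how replicates were prepared than that mice were individual. Alternatives were other added constants (1 and 64), other filters (none, 150, the lower 40% left out), quantile normalization, an ordinary linear model, only the groups compared, 1 probe set per gene, the beta-actin ratio as a covariate, and arrays left out.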

Additional observations from a re-analysis of the deposited data

Results flagged for a closer look

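In 2 of the 42 member probe sets above 75 (4.76%), the R899X groups lay on opposite sides of control. Both arrays of one group lay above both controls and both arrays of the other below them. The same held for 345 of all 27371 probe sets tested (1.26%). Nothing is read from the count of 2, because the filter bears on 1 of them. In Adamts10 1441309_at normal RVSP was below and high RVSP above the controls, and high RVSP differed from normal RVSP by 1.23 on the log2 scale (adjusted p = 1 in limma); this probe set is above 75 only through its high RVSP arrays, so it had to be high there to be counted. In Mmp19 1421977_at the order was the same, with a difference of 0.62 (adjusted p = 1 in limma). Groups of 2 mice are too small to look for single outlying samples.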

How the results depend on the processing

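The count of members past the threshold was 0 in all 4 comparisons under every alternative run, except without control 1 and normal RVSP 1 together. There it was 1 for all R899X mice against control (Adamts10) and 2 for high RVSP against control (Adamts10 and Mmp9), and Bmp1 also passed at -1.05 (adjusted p = 0.0441 in limma). That fit leaves 1 mouse in each of 2 groups, assumed to vary like the others, and calls 223 and 286 of all probe sets in these comparisons, against 0 with all arrays. With single arrays left out, the members' median ranged from -0.0891 to 0.11 for all R899X mice and from -0.0234 to 0.139 for high RVSP against control. It was -0.0822 for all R899X mice without both arrays, and -0.0618 for high against normal RVSP with the brightest probe set per gene, which leaves 24 probe sets. The SD of that median between replicates was 0.085. Filters, the ordinary linear model, 1 probe set per gene and arrays outside a comparison leave a difference as it is by construction. Under the settings that can change it, the 23 named differences kept their sign. Differences of the members not chosen in this way often did not keep their sign. With the beta-actin ratio in the fit, 34 of 40 kept it for normal RVSP against control, 28 of 36 for high RVSP against control, 32 of 37 for high against normal RVSP and 25 of 38 for all R899X mice. It was kept by 25 of 40 for normal RVSP against control without control 1, by 25 of 36 for high RVSP against control without control 2, and by 23 of 40 for normal RVSP against control without both arrays. No setting moved the median of all probe sets by over 0.1. The filter on mean log2 values was chosen after seeing the data. Few arrays and low signal limit dim members. No paired analysis was possible because the labels pair no mice across groups.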
